A study of Rattus norvegicus with 6 samples.

Results

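The genes described here form the MHC class I antigen presentation pathway of the rat: the class I heavy chains RT1-A, RT1-CE16 and RT1-CE12, the light chain B2m, the peptide transporter genes Tap1 and Tap2, the immunoproteasome genes Psmb8 and Psmb9, and the loading chaperones Canx and Calr. They were taken as every probe set whose platform annotation names exactly 1 gene and whose gene is among these 10. This gave 18 probe sets of the 8740 on the array that are not array controls. The genes were selected on the measured difference between the lines in these pools, so that difference is given as a description, with no test, and supports nothing. Total RNA came from whole hippocampus of Syracuse High Avoidance (SHA) and Syracuse Low Avoidance (SLA) rats, lines named for how well they learn two-way active avoidance, in which a rat crosses a box to avoid a signalled shock. All animals of both lines had been through that testing and were killed 2 weeks later. Each line was measured as 3 pools of 3 rats on 1 array per pool, so n = 3 per line and the pool is the replicate. No label says whether the pools were prepared on separate days, and neither age nor sex is given in the labels. No untested rats were measured, so differences between the lines and effects of the testing cannot be told apart.

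Class I molecules present short peptides from inside the cell. The proteasome cuts proteins into peptides, and the interferon-induced subunits Psmb8 and Psmb9 take the place of constitutive subunits in the immunoproteasome. Tap1 and Tap2 form the transporter that carries peptides into the endoplasmic reticulum, where calnexin (Canx) and calreticulin (Calr) help the heavy chain to fold and to pair with beta-2 microglobulin (B2m). In rats the heavy chains are encoded in the RT1 complex, with RT1-A as the classical class I locus and the RT1-CE genes in a separate class I cluster. In the brain, class I genes are expressed in microglia and endothelium and, from work in mice and rats, in neurons, where they have been linked to synapse remodelling.

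Intensities are linear values per probe set on the authors' scale. Each difference is the log2 level in SHA minus that in SLA, with limma's standard error, so -1 means that the level in SHA was lower by a factor of 2. The arrays carried a 2%-trimmed mean intensity of 250.3 to 250.4. Values under a floor of 8.9 were raised to it and the dimmest 25% of probe sets were left out, which left 6555, among them 16 of the 18 probe sets described here. One probe set of Tap1 and one of Psmb9 did not pass and are given as values only. Neuron and hippocampus markers, among them Camk2a, Nrgn and Snap25, were measured as 8 of 10 genes, with summed intensities of 13195 to 15113 in SHA and 11307 to 14056 in SLA. Of the 6555 probe sets 0 (0%) passed limma after Benjamini-Hochberg adjustment at 0.05, where the smallest value was 0.81, and 98 (1.5%) had an unadjusted p under 0.05. With the pool number as a block the unadjusted count was 345, and the smallest adjusted p was 0.13.

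Promoter windows from RefSeq on build GRCr8 were at hand for 9 of the 10 genes. The 250 bases before the annotated start are shown for 4 of them, namely 1 heavy chain, the light chain and both transporter subunits, because interferon and NF-kappa-B elements in such promoters are the textbook route by which these genes are induced together. They lie at chr20:3265444-3265693 on the minus strand (RT1-CE16), chr3:129549080-129549329 on the plus strand (B2m), chr20:4668544-4668793 on the minus strand (Tap1) and chr20:4652297-4652546 on the minus strand (Tap2). Capitals mark matches, on either strand, to AANNGAAA (a core bound by interferon regulatory factors), GAAANNGAA (most of an interferon-stimulated response element, overlapping the core), GGGACTTTC and GGGGATTCC (both parts of NF-kappa-B sites) and CCAAT.
RT1-CE16: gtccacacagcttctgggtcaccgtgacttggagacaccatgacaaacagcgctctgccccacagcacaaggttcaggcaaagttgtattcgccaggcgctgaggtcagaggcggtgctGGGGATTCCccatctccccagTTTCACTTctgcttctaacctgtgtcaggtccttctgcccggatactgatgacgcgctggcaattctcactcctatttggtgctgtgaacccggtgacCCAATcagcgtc
B2m: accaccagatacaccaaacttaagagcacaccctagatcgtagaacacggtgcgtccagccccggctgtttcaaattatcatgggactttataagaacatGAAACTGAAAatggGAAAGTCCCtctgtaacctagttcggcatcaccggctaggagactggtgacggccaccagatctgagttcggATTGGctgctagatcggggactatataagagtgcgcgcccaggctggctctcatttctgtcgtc
Tap1: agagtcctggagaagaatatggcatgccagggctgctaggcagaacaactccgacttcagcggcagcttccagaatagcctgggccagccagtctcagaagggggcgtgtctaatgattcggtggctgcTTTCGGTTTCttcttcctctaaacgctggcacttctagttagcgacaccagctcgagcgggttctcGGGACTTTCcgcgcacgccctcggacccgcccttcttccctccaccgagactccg
Tap2: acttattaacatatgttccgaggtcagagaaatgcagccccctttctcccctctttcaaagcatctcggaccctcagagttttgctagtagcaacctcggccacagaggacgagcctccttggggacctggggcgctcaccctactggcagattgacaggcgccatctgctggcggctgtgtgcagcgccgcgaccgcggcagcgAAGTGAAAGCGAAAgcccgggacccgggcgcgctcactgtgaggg

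The RT1-CE16 window held GGGGATTCC from 131 to 123 bases before the start, a CCAAT box close to the start, and the interferon core between them. B2m held GAAANNGAA, GGGACTTTC on the other strand and CCAAT. Tap1 held GAAANNGAA and GGGACTTTC, and Tap2 held GAAANNGAA. Of the windows not shown, RT1-CE12 and Calr held AANNGAAA, Psmb8, Canx and Calr held CCAAT, and Psmb9 held none of these. The Tap1 and Psmb9 windows overlap on opposite strands, and the Tap1 matches lie upstream of the 250 bases searched for Psmb9. Among 33465 promoter windows of the same length, 23.3% held AANNGAAA, 8.12% GAAANNGAA, 0.272% GGGACTTTC, 0.242% GGGGATTCC and 34.0% CCAAT. Matches are a description of letters and not evidence of binding. On the reference assembly Tap2, Psmb8, Tap1 and Psmb9 follow one another on chromosome 20 between RT1-DOb and RT1-DMb, RT1-CE16 and RT1-CE12 lie elsewhere on the same chromosome, and B2m, Canx and Calr lie on chromosomes 3, 10 and 19.

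The heavy-chain probe sets lay lower in SHA, with no overlap between the lines. The RT1-A probe set M31018_f_at read 494, 447 and 462 in SHA pools 1, 2 and 3, against 832, 881 and 745 in SLA pools 1, 2 and 3. Every SHA pool lay below every SLA pool, and the SHA mean of 468 ± 23.8 was 0.571 of the SLA mean of 819 ± 68.8 (SD, n = 3 each), a difference of -0.81 ± 0.22. RT1-CE16, read by M11071_f_at, had 790.5, 518 and 784 in the SHA pools, against 1218, 1067 and 1336 in the SLA pools. Again the lines did not overlap, with SHA pool 2 the lowest of the 6, and the difference was -0.81 ± 0.25. RT1-CE12, read by M24026_f_at, had 453, 547 and 471 in the SHA pools, against 793, 790.3 and 683 in the SLA pools, a difference of -0.63 ± 0.22. Its lines did not overlap either, although SHA pool 2 was here the highest of its line. Of the 6555 probe sets tested, 3.65% had every SHA pool below every SLA pool.

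**Figure D1:**
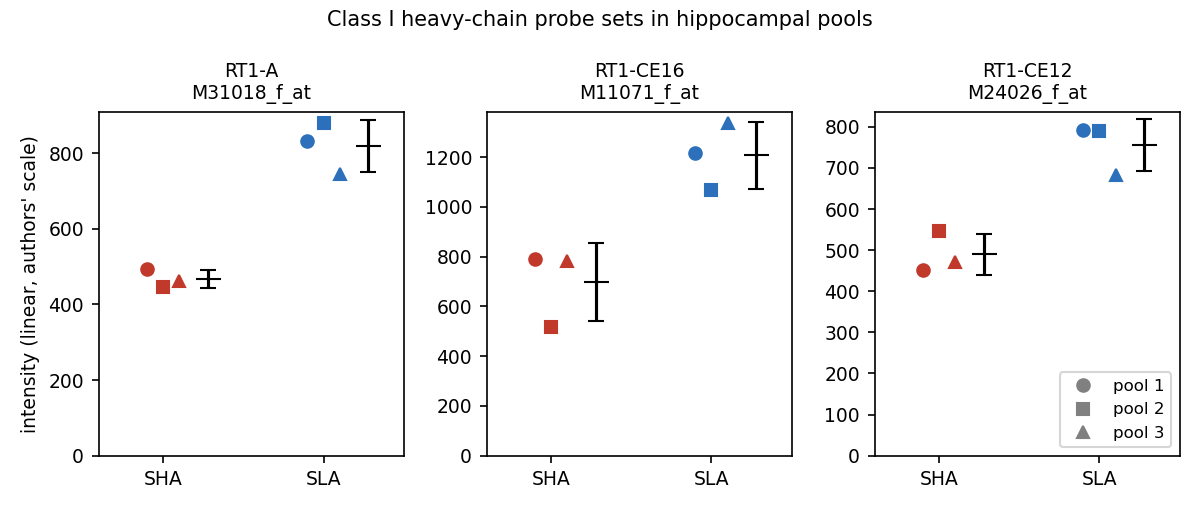
Linear intensity of the 3 class I heavy-chain probe sets in the SHA pools (left, red) and the SLA pools (right, blue), with the marker shape giving the pool number and the black bar the mean ± SD (n = 3 pools). The SHA pools lie between 447 and 494 for RT1-A, below the SLA pools at 745 to 881, and the lines are apart for RT1-CE16 and RT1-CE12 as well.

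Compared between pools that share a number, the heavy chains were lower in SHA in 9 of 9 comparisons, with differences of -1.04 to -0.53. RT1-A differed by -0.75, -0.98 and -0.69 within the numbers 1, 2 and 3, RT1-CE16 by -0.62, -1.04 and -0.77, and RT1-CE12 by -0.81, -0.53 and -0.54. RT1-A and RT1-CE12 also varied little within a line. Their within-line SD of 0.10 and 0.13 on the log2 scale exceeded that of 2.2% and 5.0% of the 500 tested probe sets closest to each in mean log2 value, and RT1-CE16, at 0.27, that of 31.8%. The 3 probe sets did not track one another inside a line. Over the deviations of the 6 pools from their line means, the correlation was 0.19 between RT1-A and RT1-CE12 and -0.90 between RT1-CE16 and RT1-CE12, with the arrays shared by all points. All 3 are of the type designed to a family of sequences and can read several RT1 class I transcripts, so the gene behind each is uncertain. RT1 genes are highly polymorphic, and a difference between the lines in transcript level and one in transcript sequence under the probes cannot be told apart on these arrays.

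B2m, the light chain that every class I heavy chain pairs with, did not separate the lines. Its only probe set naming 1 gene, rc_AI170268_at, read 1149.9, 1423 and 586 in the SHA pools, against 878, 1725 and 1098 in the SLA pools. The lines overlapped widely, with SHA pool 3 the lowest and SLA pool 2 the highest, and the difference of -0.27 ± 0.37 was smaller than its standard error. Within the numbers 1, 2 and 3 it was 0.39, -0.28 and -0.91. The within-line SD was 0.59 on the log2 scale, above that of 87.2% of the probe sets of like brightness. Without SHA pool 3 the difference was 0.11, and without SLA pool 2 it was 0.01.

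The transporter genes lay lower in SHA on average, with overlapping pools. Tap1, the subunit read by X57523_at, had 182, 180.4 and 243 in the SHA pools, against 335, 172 and 255 in the SLA pools, a difference of -0.29 ± 0.33. Tap2, the partner subunit read by X63854_at, had 86.3, 88.4 and 137 in the SHA pools, against 181, 100 and 127 in the SLA pools, a difference of -0.38 ± 0.40. For both subunits SLA pool 1 was the highest of the 6. Within the number 1 the differences were -0.88 for Tap1 and -1.07 for Tap2, within the number 2 they were 0.07 and -0.18, and within the number 3 they were -0.07 and 0.10. Without both pools numbered 1 the difference was 0.00 for Tap1 and -0.04 for Tap2. The dim second Tap1 probe set X57523_g_at read 19.1, 6.9 and 51.7 in the SHA pools, against 36.7, 13.3 and 34.3 in the SLA pools.

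The immunoproteasome genes lay on the other side, again with overlap. Psmb8, the subunit LMP7, read 56.0, 116 and 232 in the SHA pools, against 85.1, 81.0 and 138 in the SLA pools on D10729_s_at, a difference of 0.22 ± 0.55. Psmb9, the subunit LMP2, read 40.9, 49.8 and 122 in the SHA pools, against 64.9, 38.6 and 36.2 in the SLA pools on D10757_g_at, a difference of 0.48 ± 0.60. SHA pool 3 was the highest of the 6 for both. Without SHA pool 3 the difference became -0.29 for Psmb8 and 0.01 for Psmb9. The dim probe set D10757_at of Psmb9 read 41.1, 6.1 and 39.3 in the SHA pools, against 22.8, 11.9 and 11.2 in the SLA pools.

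Canx, the membrane-bound chaperone that first holds new heavy chains, was read by 5 probe sets. The brightest, rc_AI010725_g_at, had 991, 2371 and 1155 in the SHA pools, against 636, 1199 and 1273 in the SLA pools, a difference of 0.49 ± 0.39. The lines overlapped, and SHA pool 2 was far above the other 5 pools. Of the other 4, rc_AI235707_g_at differed by 0.50 ± 0.53, rc_AI010725_at by 0.40 ± 0.32, rc_AA893328_at by 0.23 ± 0.53 and L18889_at by -0.09 ± 0.30. Calr, the soluble chaperone of the loading complex, was read by 3 probe sets. The brightest, D78308_at, had 1561, 1799 and 1967 in the SHA pools, against 1767, 2120.2 and 2206 in the SLA pools, a difference of -0.19 ± 0.23 with overlapping lines. X53363cds_s_at differed by 0.31 ± 0.43 and D78308_g_at by 0.27 ± 0.30, so the Calr probe sets did not share a direction.

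**Figure D2:**
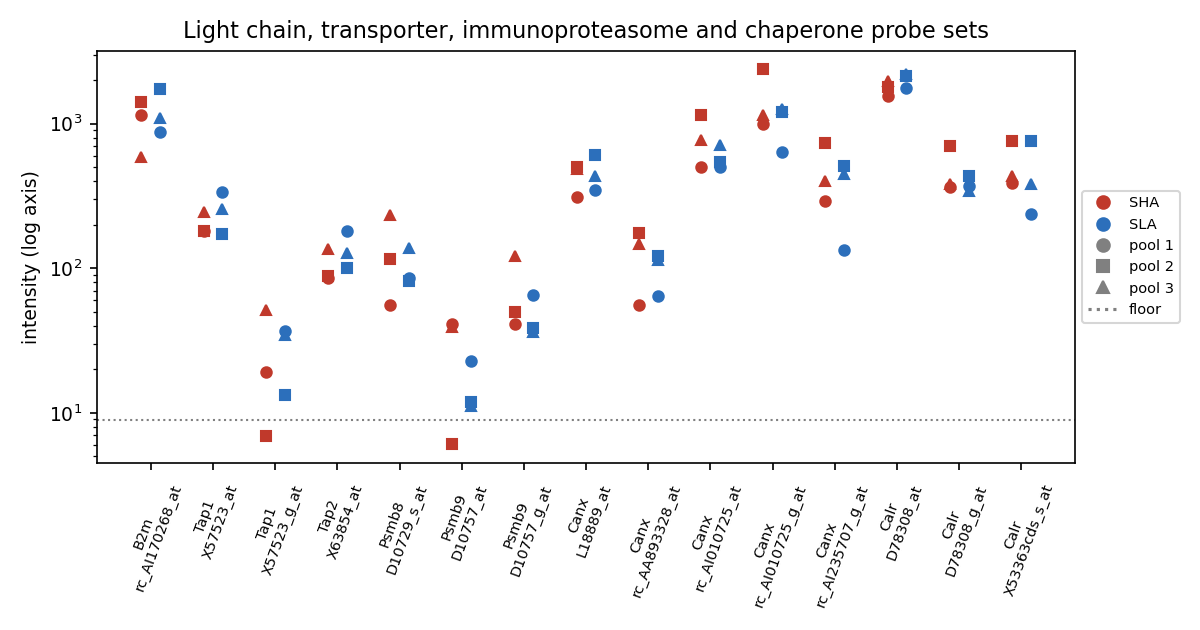
Intensity on a log axis of the 15 probe sets of B2m, Tap1, Tap2, Psmb8, Psmb9, Canx and Calr in SHA pools (red, left of each pair) and SLA pools (blue), with marker shapes for the pool numbers and a dotted line at the floor of 8.9. SHA and SLA pools overlap for every one of these 15 probe sets.

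What most chaperone probe sets shared was a low value in pool 1. All 5 of Canx were lowest in pool 1 of the SHA pools and in pool 1 of the SLA pools, and all 5 were highest in SHA pool 2 within SHA. Of the 8 Canx and Calr probe sets, 8 were lowest in SHA pool 1 and 7 in SLA pool 1. The heavy chains showed no such pattern, with 1 of the 3 lowest in SHA pool 1 and 0 in SLA pool 1. The 9 bacterial and phage control probe sets also followed the pool number, but in the opposite direction, highest in pool 1 of both lines. Their geometric means were 5458, 1121 and 2279 in SHA pools 1, 2 and 3, against 12282, 640 and 1564 in SLA pools 1, 2 and 3. The part of these array differences in the chaperone values was not tested.

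**Figure D3:**
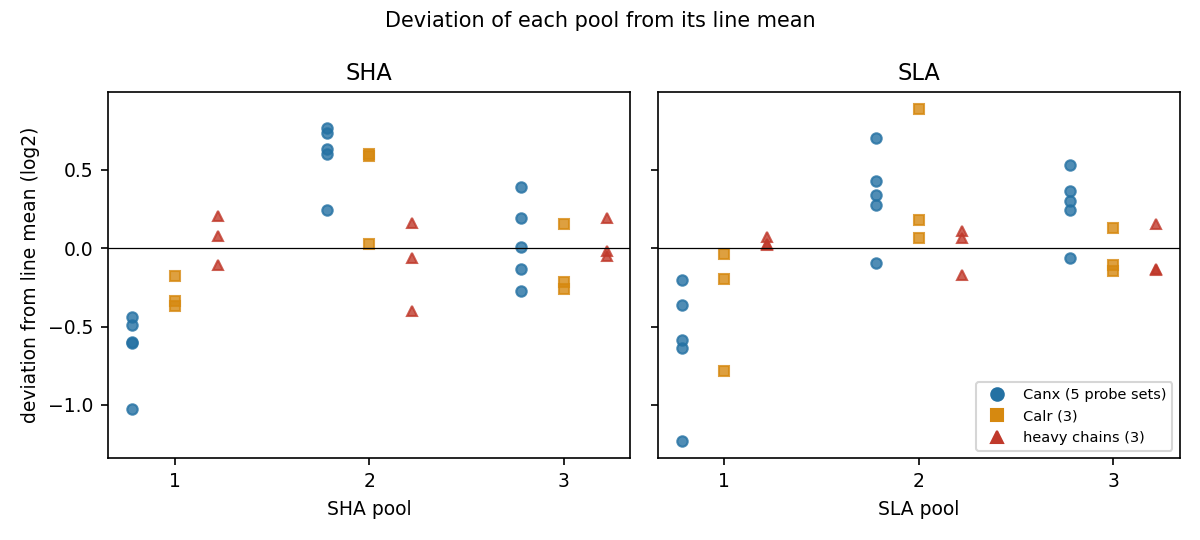
Deviation of each pool from its line mean on the log2 scale, for the probe sets of Canx (circles), Calr (squares) and the heavy chains (triangles), in SHA pools (left panel) and SLA pools (right panel). All 5 Canx probe sets are lowest in the pools numbered 1 in both lines, and the heavy chains do not follow that order.

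Over all 18 probe sets, 9 lay lower and 9 higher in SHA, with a median difference of 0.06, beside 51.9% lower and a median of -0.01 over the 6555 tested. The 3 heavy-chain probe sets had a median of -0.81. The other 15 had 6 lower and 9 higher, a median of 0.23 and a range of -0.38 to 0.75. None of these 15 had lines that did not overlap, and the 3 that did were the heavy chains. None of the 18 had every SHA pool above every SLA pool, where 2.01% of the tested probe sets did. Without SHA pool 1 the median over the 18 was 0.25 and without SHA pool 3 it was -0.09, so its sign rested on single pools. The difference between the heavy chains and the rest was not tested, since it was among the values that chose the genes.

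**Figure D4:**
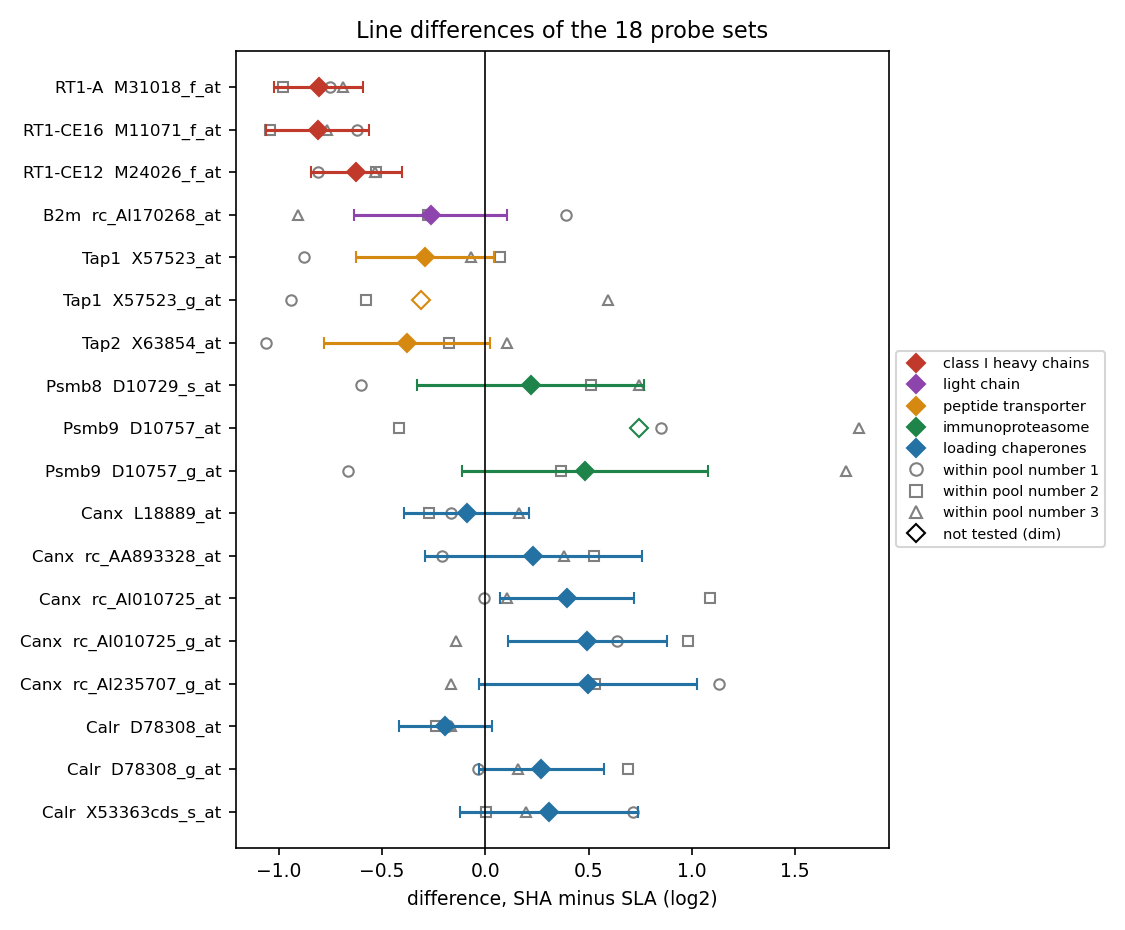
Difference SHA minus SLA on the log2 scale for each of the 18 probe sets (diamonds, coloured by role, bars ± standard error, open where the probe set was too dim to be tested) and within each pool number (grey symbols). The 3 heavy chains lie at -0.81 to -0.63 with all within-number values below 0, while D78308_at of Calr is the only other probe set with all 3 within-number values below 0.

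Further probe sets on the array read related class I sequence. A set of 3 probe sets names RT1-A, RT1-CE16 and RT1-A1 together and so falls outside the 18. AF074609mRNA_f_at read 493, 423 and 560 in the SHA pools, against 748, 668 and 573 in the SLA pools, a difference of -0.43 ± 0.24 with lines that did not overlap. M64795_f_at, at 43.6, 56.3 and 50.2 in SHA, against 71.7, 76.0 and 40.9 in SLA, overlapped (-0.29 ± 0.51). M64795_i_at lay on the other side, at 0.45 ± 0.58. Among other class I and class I-like genes, 6 of the 8 tested lay lower in SHA and 2 higher, with a median of -0.37, and none passed. RT1-S3, a nonclassical class I gene, read 134, 87.7 and 20 in the SHA pools, against 171, 180 and 174 in the SLA pools on AF029240_g_at, a difference of -1.50 ± 0.65. Every SHA pool lay below the SLA pools there, but SHA pool 3 was far below the other 2, and another probe set of the gene, rc_AI235890_s_at, differed by 0.04. RT1-N3, the gene farthest to the other side, differed by 0.17 ± 0.58.

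The remaining genes of the pathway were counted with 1 probe set per gene, the brightest, and none passed over all probe sets. Of 9 other loading and trimming genes, 3 lay lower and 6 higher in SHA (median 0.12), from Hspa5, the chaperone BiP, at -0.22 ± 0.37 to Pdia3, the disulphide isomerase of the loading complex, at 0.58 ± 0.43. Of 3 further genes of the immunoproteasome and its activator, Psme1, a subunit of the activator PA28, was the lowest at -0.53 ± 0.29 and Pomp, an assembly chaperone, the highest at 0.44 ± 0.30. Of 11 standard proteasome core genes, 2 lay lower and 9 higher (median 0.11), from Psmb4 on L17127_at at -0.12 ± 0.56 to Psma4 at 0.33 ± 0.25. Dimmer probe sets of these genes disagreed. A second Psmb4 probe set, rc_AI172162_at, read 3023, 1724 and 1836 in the SHA pools, against 837, 690 and 773 in the SLA pools, a difference of 1.47 ± 0.27 with no overlap, and Psma5 on rc_AA891383_i_at differed by -2.31 ± 0.82. Of 23 interferon signalling genes and class I regulators, 15 lay lower and 8 higher (median -0.19). Mx2, an interferon-induced GTPase, read 64.1, 97.0 and 39.5 in the SHA pools, against 161, 122 and 132 in the SLA pools, a difference of -1.13 ± 0.46 with no overlap. Stat2, a transducer of type I interferon signals, read 100.3, 133 and 204 in the SHA pools, against 57.9, 85.8 and 91.8 in the SLA pools, a difference of 0.86 ± 0.43, also with no overlap.

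Cells that carry class I molecules were followed through marker genes. Of 9 microglia markers tested, 9 lay lower in SHA on their brightest probe set, with a median of -0.40. The other 2 of the 11 on the array were too dim to be tested and lay on the other side, Csf1r at 1.09 and Itgam at 0.09, as did a dimmer probe set of Aif1, U10894_s_at, at 0.55 ± 0.94. The summed intensity of the 9 was 1307 to 1415 in SHA and 1630 to 2013 in SLA, so the lines did not overlap. Taken gene by gene, 2 of the 9 had lines that did not overlap. C1qb, a chain of complement C1q that microglia make, was picked as an example after its values were seen. On X71127_at it read 288, 381 and 277 in the SHA pools, against 546, 469 and 421 in the SLA pools. On its other probe set, X71127_g_at, the lines overlapped, with a difference of -0.32 ± 0.45. The lowest was Fcgr2b, an Fc receptor, at -0.71 ± 0.60. In whole tissue fewer cells of a type and less RNA per cell cannot be told apart. The list of class II genes and the invariant chain Cd74, which also holds the protease gene Ctss, had 10 of 10 tested genes lower on their brightest probe set (median -0.55), from Cd74 at -2.67 ± 0.76. Its sums were 3102 to 3581 in SHA and 4834 to 4946 in SLA, a separation that rested on Ctss. Without Ctss the sums were 1538, 1187 and 1695 in SHA pools 1, 2 and 3, against 2889, 1728 and 1674 in SLA pools 1, 2 and 3, which overlapped, with 9 of 9 genes lower and a median of -0.54. Dimmer probe sets of RT1-Ba (X07551cds_s_at, 0.08) and RT1-Bb (X56596_at, 0.15) lay on the other side. RT1-DOb of that list stayed at or under the floor in every pool.

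Endothelial markers had 7 of 8 lower (median -0.19), with sums of 1113 to 1520 in SHA and 1399 to 1592 in SLA that overlapped, from Icam1 at -0.38 ± 0.36 to Kdr at 0.31 ± 0.66. Dimmer probe sets of Slc2a1 (M13979_at, 0.27) and Vwf (U50044cds_at, 0.35, too dim to be tested) lay on the other side. Of 7 T and NK cell markers tested, 2 lay lower and 5 higher (median 0.04), from Lck at -0.61 ± 0.40 to Cd8b at 0.22 ± 0.50. Their sums were 441 to 857 in SHA and 544 to 831 in SLA. The rest of the 12 on the array were too dim to be tested. Of these, Klrd1 (-0.94), Cd2 (-0.57), Cd3d (-0.40) and Cd8a (-0.38) lay lower in SHA, and Prf1 (0.03) higher. The list of receptors for class I molecules and their partner chains had 6 genes on the array, with neither Pirb nor Lilrb3 among them. The 3 tested were Klrc1 at -0.85 ± 0.90, Cd247 at 0.10 ± 0.82 and Cd8b. The other 3 were too dim, with Klrd1 and Cd8a lower in SHA and Klra5 higher (0.33). The 3 markers of blood-borne macrophages and granulocytes on the array were all too dim to be tested. The part of any of these cell types in the heavy-chain values was not tested.

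**Figure D5:**
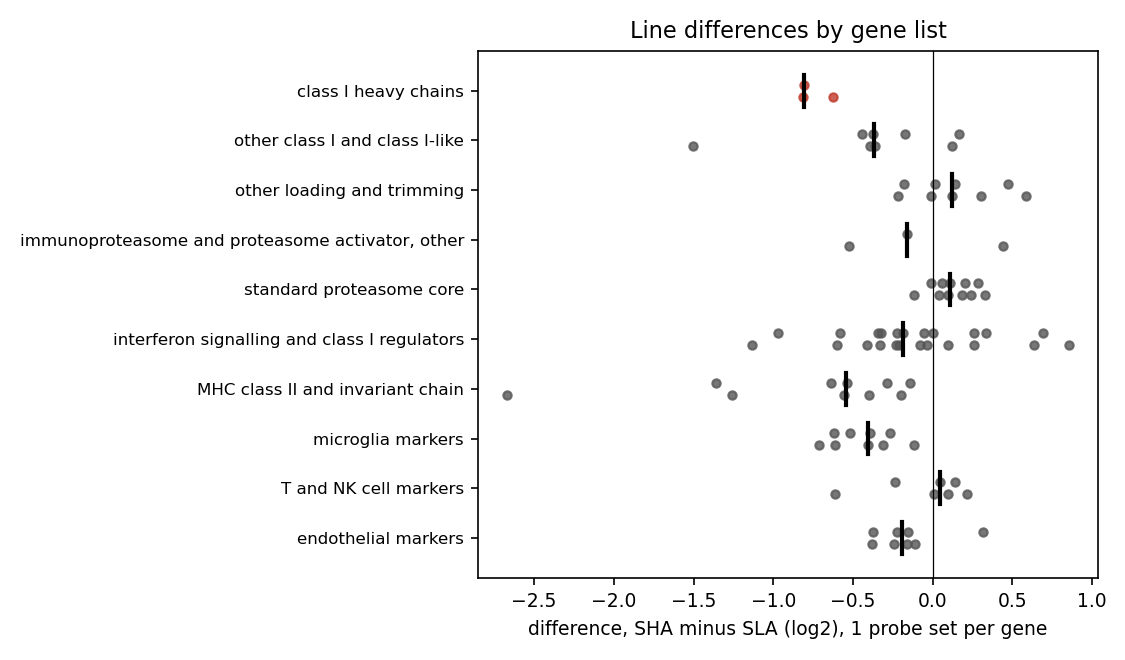
Difference SHA minus SLA on the log2 scale for the genes of each list, the brightest tested probe set per gene, with the list median as a black bar and the 3 class I heavy chains in red. All genes of the microglia and class II lists lie below 0 on these probe sets, as the heavy chains do. Below 0 lie 6 of 8 other class I, 7 of 8 endothelial, 15 of 23 interferon and 2 of 3 further immunoproteasome and activator genes. Above 0 lie 9 of 11 standard proteasome, 6 of 9 loading and trimming and 5 of 7 T and NK cell genes.

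Genes with a pattern like that of RT1-A were ranked by Pearson correlation over the 6 pools among 5366 probe sets. The 5 most alike were Cd74 (0.97, probe set X13044_at), Cstb, a cysteine protease inhibitor (0.97), Tcn2, a carrier of vitamin B12 (0.96), Vps52, a vesicle transport subunit (0.94), and Tgfbr1, a TGF-beta receptor (0.94). Cd74 read 7.8, 10.4 and 7.2 in the SHA pools, against 246, 128 and 86.8 in the SLA pools, so 2 SHA pools were raised to the floor, and its difference and its place depend on the floor. The other 4 lay lower in SHA on these probe sets, by -0.36, -0.48, -1.26 and -2.12, so these correlations hold the line difference itself and share the same arrays. Another probe set of Cstb, rc_AI008888_at, differed by 0.30. Over deviations from the line means the 5 most alike were Entpd2, Wdfy1, Sv2b, Tubb5 and Dkc1, with correlations of 0.94 to 0.97, and none of the first 5 was among them.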

How the data were processed

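Hippocampal total RNA of 6 pools was measured on 6 one-colour arrays. The deposited table holds linear intensities, 1 for each probe set in each pool. The 2%-trimmed means were equal, so the values were already scaled. The software is not given in the sources used here. Array number limits precision. Groups came from sample titles. The 59 control probe sets were left out. Values below the 10th percentile (8.9) were set to it, log2 was taken, and the dimmest 25% by mean were left out. SHA was set against SLA by limma 3.58.1 under R 4.3.3 (lmFit, eBayes with an intensity trend, two-sided, Benjamini-Hochberg over 6555 probe sets), tested on simulated data. Of 8740 probe sets 7006 had 1 gene symbol, 308 several and 1426 none listed, and 6985 of the first matched GRCr8 gene numbers, which updated the symbols. Members and lists were chosen with earlier results of these data known. All members are named, and in each other pathway list the gene with the largest difference each way. The lists were other class I genes, loading and trimming, immunoproteasome, standard proteasome, interferon signalling, class II, class I receptors and cell markers. Titles number the pools 1 to 3 without saying what a number shares. Deviations of same-numbered pools correlated at 0.44, 0.68 and 0.13, so pools were also compared within a number, from the data alone. The main fit was unpaired, with no block. Alternatives were other scalings, filters and floors, a pseudocount of 16, the block, no trend, array weights and leaving out pools.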

Additional observations from a re-analysis of the deposited data

How the results depend on the processing

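The count of probe sets past the adjusted threshold was 0 under 16 of 17 other settings. Blocking on pool number and weighting the arrays together, added after seeing the data, gave 12. RT1-A and RT1-CE16 were among these 12, which is no test of them, since they were selected on this difference. Without the block, the array weights were 5.03 for SLA pool 3 and 0.37 to 0.985 for the other pools. That weighted fit thus leaned on 1 SLA pool, and the weights with the block are not given here. The replicate block alone changed no call, and the smallest adjusted p in limma over all probe sets was then 0.13. The number of the 18 probe sets lower in SHA ranged from 7 to 12, against 9. Their median difference ranged from -0.091 to 0.248 when 1 pool was left out, and was -0.06 with array weights. The count of probe sets whose lines did not overlap was 3 to 5 when 1 pool was left out (5 when the omitted pool was SHA 1, SLA 1 or SLA 2). It was 7 without both pools numbered 1. With fewer pools, lines separate more easily. The share over all tested probe sets was not counted under these settings, so these counts show no gain in separation. Of the 16 tested probe sets, 7 took the other sign by at least 0.01 under at least 1 setting, none of them a heavy chain, and the cause was not tested. The 2 dim probe sets were fitted under few settings and are not counted here. RT1-A ranged from -0.91 to -0.72, RT1-CE16 from -0.95 to -0.61 and RT1-CE12 from -0.71 to -0.53. The count at an unadjusted p under 0.05 was 57 to 152 when 1 pool was left out, against 98. Keeping all dim probe sets gave 203, dropping the dimmer 50% gave 63, and the count was 345 with the block, 354 with array weights and 871 with both. Of the 5 genes most like RT1-A, 0 were kept over deviations from the line means.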

Other observations

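One further probe set names B2m together with 5 other genes, among them ribosomal RNA and haemoglobin, and was not used for B2m. It read 49840, 82.7 and 2680 in SHA pools 1, 2 and 3, against 59812, 32.3 and 1410 in SLA pools 1, 2 and 3. The values followed the pool number and not the line.

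Red blood cell transcripts, choroid plexus markers and meningeal markers, from structures next to the hippocampus or from blood, had summed intensities that overlapped between the lines. They were 1249 to 2958 in SHA and 1118 to 2429 in SLA for the red blood cell transcripts, 445 to 554 in SHA and 413 to 669 in SLA for the choroid plexus, and 1459 to 1932 in SHA and 1720 to 2244 in SLA for the meninges. Astrocyte markers summed to 16059 to 17271 in SHA and 14521 to 16903 in SLA, and oligodendrocyte markers to 14449 to 21166 in SHA and 14129 to 26111 in SLA. Lower in SHA were 4 of 5 oligodendrocyte (median -0.185), 5 of 7 meningeal (-0.12), 3 of 4 choroid plexus (-0.07) and 2 of 2 red blood cell genes (-0.07). Higher were 4 of 6 astrocyte (0.02) and 6 of 8 neuron and hippocampus markers (0.27).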
